A study of Mus musculus with 12 samples.

Results

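The comparison described here set the livers of 9 mice given curcumin, taken as 1 group across all doses, against the livers of 3 mice that were not given it. These 12 livers are all of the samples in the series, so the comparison used 12 of 12 libraries, and its members were chosen by group label alone. All mice were wild-type C57BL/6J and 6 weeks old when the model was begun, and every group had the same injury: 200 µL of a 7.5% carbon tetrachloride (CCl4) solution in olive oil, injected into the peritoneum 2 times a week over 6 weeks. The control group had CCl4 alone. Curcumin, the yellow polyphenol of turmeric root, was given by gavage every day for 2 weeks, at 25 mg/kg in the low dose group (3 mice), 50 mg/kg in the medium dose group (3 mice) and 100 mg/kg in the high dose group (3 mice). No uninjured liver was analysed here, so each difference is between injured livers. The labels give no sex and no hour of tissue collection, nor do they tell if the controls had a gavage of vehicle. Mice were kept 3 to a cage, so that cage and group may coincide and cannot be told apart.

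The series title places the question in the signalling of tumour necrosis factor (TNF) and NF-κB and in Slamf8. CCl4 is turned into a reactive radical by cytochrome P450 enzymes of hepatocytes. Cells that die of it set off resident macrophages (Kupffer cells), which release TNF and chemokines, and stellate cells answer by laying down collagen. TNF acts through its receptors on the kinases that free NF-κB from its inhibitor IκBα (gene Nfkbia), after which the NF-κB subunits enter the nucleus and switch on cytokines, adhesion molecules and their own inhibitors. SLAMF8 is a receptor of the SLAM family on macrophages that is known to restrain the phagocyte NADPH oxidase.

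Each liver was measured as 1 RNA sequencing library of whole tissue. Levels are given in CPM, the counts of a gene relative to the total of its library scaled by TMM, a method that corrects for differences in library composition, and differences as the log2 fold change of curcumin against control from edgeR's quasi-likelihood test with its standard error (SE). A gene was called at a Benjamini-Hochberg adjusted p under 0.05 over all 16839 genes tested. A gene is said to be separated when all 9 curcumin livers lay on 1 side of all 3 controls. It is said to be on the same side at every dose when the log2 fold change of the low, the medium and the high dose group each had the same sign and a size of at least 0.5. The 3 dose groups were set against the same 3 control livers, so that a gene that is high or low in those controls by chance lies on the same side at every dose. The mice were labelled as biological replicates, and p-values measure the spread between them.

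The promoters of 3 genes of the TNF and NF-κB theme are shown: Tnfaip2, a TNF-induced gene with the smallest p among the separated lower genes, Bcl3, a nuclear IκB protein that binds NF-κB subunits and whose window is an example of a match at the start, and Slamf8 of the title. Each window holds 250 bases before and 50 bases from the transcription start on, read 5′ to 3′ on the strand of the gene, from RefSeq on build GRCm38.p6. Tnfaip2 lies on the plus strand at chr12:111442411-111442710, Bcl3 on the minus strand at chr7:19822706-19823005 and Slamf8 on the minus strand at chr1:172590519-172590818. Capitals mark matches, on either strand, to the NF-κB consensus site and to the AP-1 site TGANTCA, which is bound by dimers of the Fos and Jun proteins.
Tnfaip2: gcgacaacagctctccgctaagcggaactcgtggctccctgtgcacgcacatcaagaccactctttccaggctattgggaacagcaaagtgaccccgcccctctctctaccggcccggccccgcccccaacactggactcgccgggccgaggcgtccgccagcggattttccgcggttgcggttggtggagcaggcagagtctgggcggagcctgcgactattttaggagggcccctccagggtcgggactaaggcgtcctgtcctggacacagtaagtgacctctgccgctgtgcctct
Bcl3: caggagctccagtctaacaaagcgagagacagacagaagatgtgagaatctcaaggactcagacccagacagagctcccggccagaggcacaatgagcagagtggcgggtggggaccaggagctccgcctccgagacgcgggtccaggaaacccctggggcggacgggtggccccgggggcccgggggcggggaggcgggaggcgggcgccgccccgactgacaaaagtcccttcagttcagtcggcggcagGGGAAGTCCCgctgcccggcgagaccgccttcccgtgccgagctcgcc
Slamf8: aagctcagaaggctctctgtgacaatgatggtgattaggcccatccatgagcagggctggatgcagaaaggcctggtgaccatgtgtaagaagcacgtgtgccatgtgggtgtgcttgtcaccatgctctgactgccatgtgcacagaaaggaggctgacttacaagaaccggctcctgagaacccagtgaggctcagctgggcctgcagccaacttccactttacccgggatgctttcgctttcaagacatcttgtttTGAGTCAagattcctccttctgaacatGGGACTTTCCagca
The Bcl3 window held 1 NF-κB match, from 2 to 11 bases after the start. The Slamf8 window held 1 AP-1 match, from 9 to 15 bases after the start, and 1 NF-κB match, from 36 to 45 bases after it. The Tnfaip2 window held no match to either site. Also searched were the cyclic AMP response element TGACGTCA and the CArG box, the serum response factor site, neither of which was found in these 3 windows. The short core of the antioxidant response element, TGANNNNGC, occurred in 45.0% of genes with a window and is not marked. Over the 27025 genes with a window, 5.14% had an NF-κB match and 8.97% an AP-1 match. Of the TNF and NF-κB list, 29 tested genes had a window and 13 of these (44.8%) held an NF-κB match, among them Nfkb2, Rel, Nfkbia, Bcl3, Tnfaip3 and Cxcl10. Of the separated genes with a window, 15 of 152 lower ones (9.87%) and 7 of 119 higher ones (5.88%) held an NF-κB match. An AP-1 match was held by 10 of 152 lower ones (6.58%) and 6 of 119 higher ones (5.04%), both below the share over all genes with a window. Those shares over all genes also cover genes that were not tested. A match describes letters in the window and not binding.

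Counts per library ran from 36015134 to 70376474, and between 17197 and 21402 genes were detected. Hepatocyte markers were abundant in every library, with Alb taking 1.35% to 10.1% of the nuclear gene counts, as the tissue label gives. Libraries of 1 group differed far beyond sampling noise. Mitochondrially encoded genes took 58.6%, 60.9% and 64.2% of the counts in the controls and 30.3% to 64.7% (median 55.5%) in the curcumin livers. The mean was 61.2% ± 2.81 (SD, n = 3) against 52.4% ± 12.2 (SD, n = 9), a difference of -8.80 percentage points (exact two-sided permutation test p = 0.291, where the smallest possible p is 0.00909). In 5 curcumin livers (low 3, medium 1, medium 2, high 1 and high 3) the share lay below all controls, and in the other 4 it lay within or above their range. Since the share touches many gene groups, values without those 5 libraries are given beside them. The skeletal muscle markers Tnni2, Tnnt3 and Mylpf summed to 65.4 CPM in high 1 and to at most 1.2 CPM in each of the other 11 libraries. Control 2, the deepest library, held the highest summed levels of leukocyte markers among the controls, so lower inflammatory genes are given with and without it where it moves them by more than 1.5 times.

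**Figure D1:**
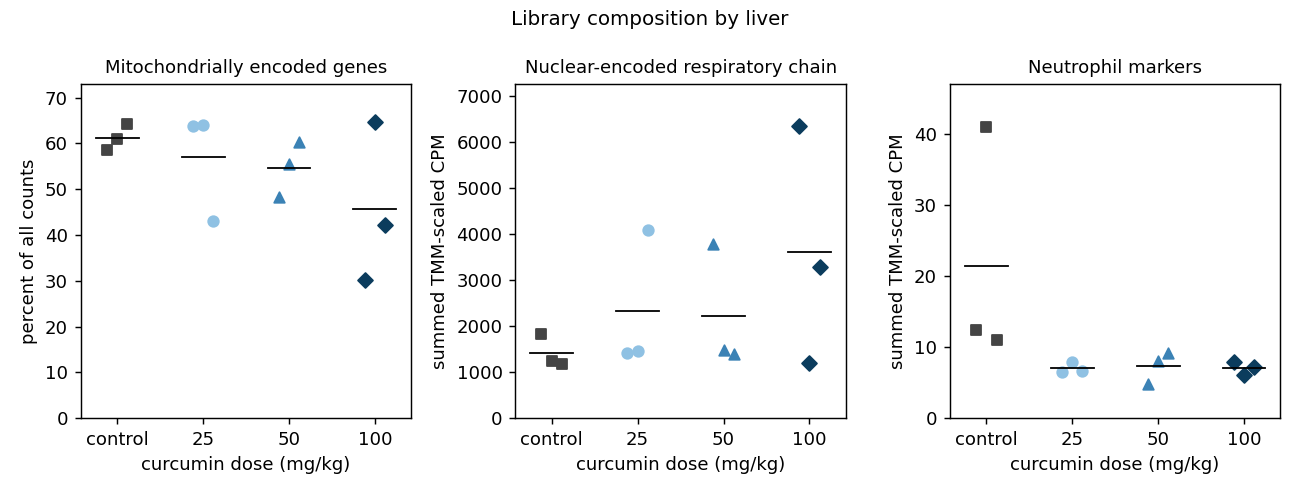
Each point is 1 liver and each bar the group mean, for CCl4 alone (control) and 3 curcumin doses; the panels show the percent of counts from mitochondrially encoded genes and the summed TMM-scaled CPM of nuclear-encoded respiratory chain genes and of neutrophil markers. Curcumin livers spread from 30.3% to 64.7% in the first panel, and in the third every curcumin liver (4.83 to 9.17 CPM) lies below every control (10.9 to 40.9 CPM).

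Pooling the doses gave 1 called gene of 16839 (0.00594%) in edgeR's quasi-likelihood test. ENSMUSG00000120967, an Ensembl gene with no symbol in the names used, had 0 counts in each of the 3 controls and 5 to 53 counts in each of the 9 curcumin livers (265 in all), and it rose at least 23.8-fold (adjusted p = 0.0376, edgeR) when 3 counts over the control group are taken as the floor. It is a weakly expressed gene, at 0.195 to 0.759 CPM in the curcumin livers. Leaving out control replicate 2 put its adjusted p at 0.147 in edgeR, and it was also above the threshold without any 1 of low 2, low 3, medium 1, medium 2, medium 3, high 1 or high 3. At an unadjusted p under 0.05 the same test gave 1627 genes (9.66%), of which 851 (5.05%) were higher and 776 (4.61%) lower. DESeq2 on the same counts called 162 genes (0.962%), 82 higher and 80 lower, and limma's voom with library weights called 17 (0.101%), 6 higher and 11 lower. Genes named below did not pass edgeR's test unless that is stated, and they are given with their values as lying higher or lower and not as changed.

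All 9 curcumin livers lay beyond all 3 controls for 381 genes (2.26%), 179 of them higher (1.06%) and 202 lower (1.2%). The higher separated genes had a median mean level of 2.76 and the lower ones of 1.02 on the log2 CPM scale. The split depends on scaling: by library totals it was 63 higher and 22 lower, and by totals without mitochondrial genes and their copies 75 higher and 265 lower, against a shift of the median of all genes from 0.04 to 0.46 and -0.14 (log2). Under each of 4 scalings 13 genes stayed separated on the higher side and 6 on the lower side. Without 1 of control replicates 1, 2 or 3 the count was 1234, 847 or 968, where fewer controls have to be cleared. Of the 381 separated genes DESeq2 called 50 higher and 53 lower ones, and voom called 6 and 8. Both used the same counts as the separation, so these calls are no independent support. By group means, 2363 genes (14.0%) lay on the same side at every dose, 1384 higher (8.22%) and 979 lower (5.81%). By library totals these were 3379 and 308, and by totals without mitochondrial genes 848 and 1543. The F test among the 3 doses in edgeR called 0 genes, which does not show that the doses acted alike.

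**Figure D2:**
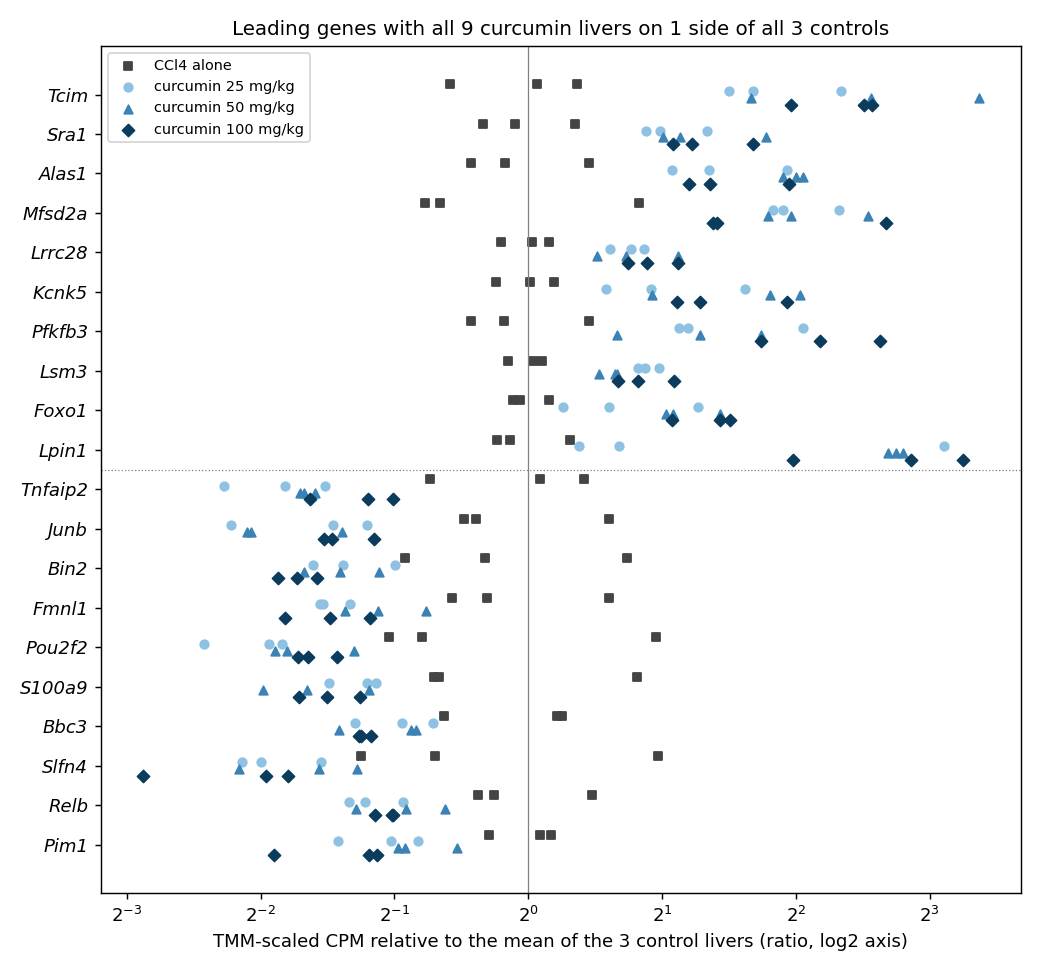
Each point is 1 liver, at its TMM-scaled CPM divided by the mean of the 3 controls (ratio, log2 axis), for the 10 higher (above the dotted line) and 10 lower genes with the smallest p among separated genes. Squares are CCl4 alone and the other symbols the 3 curcumin doses. Since only separated genes were taken, no curcumin liver overlaps a control in any of the 20 genes. The doses lie among each other.

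Tnfaip2 and Relb, of the 10 leading lower genes, belong to the TNF and NF-κB list, and Icam1 is its further separated member. Tnfaip2, which encodes a TNF-induced protein of endothelium and myeloid cells, stood at 7.85, 17.5 and 13.9 CPM in the controls and at 2.71 to 6.51 CPM (median 4.23) in the curcumin livers. All 9 curcumin livers lay below the lowest control. Its log2 fold change was -1.56 ± 0.24 (SE), with an adjusted p of 0.0702 in edgeR, 5.7e-05 in DESeq2 and 0.023 in limma. Relb encodes the NF-κB subunit of the alternative pathway, itself a target of the canonical one. It stood at 3.35, 5.58 and 3.08 CPM in the controls and at 1.58 to 2.6 CPM (median 1.97) with curcumin, again with no overlap (-1.04 ± 0.21, adjusted p = 0.191 in edgeR). Icam1, the adhesion molecule that leukocytes bind on sinusoidal endothelium, stood at 11.5, 27.8 and 14.1 CPM against 6.77 to 11.4 CPM (median 8.19). Its highest curcumin liver, low 1, came within 0.1 CPM of control 1. Its log2 fold change was -1.05 ± 0.23 (adjusted p = 0.202, edgeR), and leaving out control 2 made it -0.57.

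A list of 35 tested genes held the subunits of NF-κB, their inhibitors and known targets of TNF, and 27 of these 35 lay lower, against 46.7% of all genes. The list's median was -0.49, beside 0.04 over all genes tested, -0.50 without the 5 libraries of low mitochondrial share and -0.30 without control replicate 2. Of its members 3 were separated on the lower side and none on the higher side, and 12 lay lower at every dose, where the background is 1.2% and 5.81%. The summed level of the list was 427 to 516 CPM in the controls and 346 to 424 CPM in the curcumin livers, which did not overlap. When libraries were scaled by their totals, the median of the list was 0.00, beside 0.46 for all genes. Ccl2, the chemokine that draws monocytes into injured liver, stood at 0.378, 2.69 and 1.74 CPM in the controls and at 0.0662 to 0.702 CPM (median 0.38) with curcumin, so that 5 of the 9 curcumin livers lay within the range of the controls (-2.10 ± 0.59, adjusted p = 0.284 in edgeR).

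The genes that the title names overlapped with the controls. Tnf itself was at the edge of detection, at 0.68, 1.47 and 0.29 CPM in the controls and 0.117 to 0.752 CPM (median 0.263) with curcumin. The groups overlapped, with 5 of 9 curcumin livers below all controls. Its log2 fold change was -1.49 ± 0.56 (adjusted p = 0.438, edgeR) and -0.74 without control replicate 2. Slamf8 stood at 0.831, 0.816 and 0.312 CPM in the controls and at 0 to 0.493 CPM (median 0.234) with curcumin. Here 6 of 9 curcumin livers lay below all controls, and medium 1 had 0 counts, which allows up to 0.0465 CPM by counting error. Its log2 fold change was -1.39 ± 0.66 (adjusted p = 0.52, edgeR). At levels this low counting error adds to the spread between livers, and its part was not measured.

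The core of the canonical pathway differed little. Nfkb1, the p50 precursor, stood at 8.25, 10.4 and 9.3 CPM in the controls and at 5.55 to 9.32 CPM (median 7.74) with curcumin, overlapping groups (-0.34 ± 0.18, adjusted p = 0.547 in edgeR). Rela, the p65 subunit, stood at 16.8, 17.8 and 18.2 CPM against 11.8 to 21.1 CPM (median 14.7), with curcumin livers on both sides of the controls (-0.18 ± 0.20, adjusted p = 0.777 in edgeR). Both signs turned when libraries were scaled by totals (0.02 and 0.15), where the median of all genes was 0.46. Nfkbia stood at 26.7, 23.7 and 18.5 CPM against 19.7 to 28.7 CPM (median 21.2), a log2 fold change of 0.00 ± 0.19. None of these transcripts measures the activity of NF-κB, which is set by the movement of the protein. Over the SLAM family, receptors on blood cells that bind each other between cells, 8 of 9 tested genes lay lower, beside 46.7% of all genes. Of these 9 genes 0 were separated, where 1.2% of all genes were separated lower, and the list's median was -0.83. The median was -0.45 without the 5 libraries of low mitochondrial share, -0.43 by library totals, -0.21 without control replicate 2, -0.50 without medium 2 and -0.44 without medium 3. Cd48, a partner of SLAM receptors, stood at 1.51, 3.19 and 0.914 CPM against 0.729 to 1.48 CPM (-0.85 ± 0.33, adjusted p = 0.45 in edgeR), and at -0.21 without control replicate 2.

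**Figure D3:**
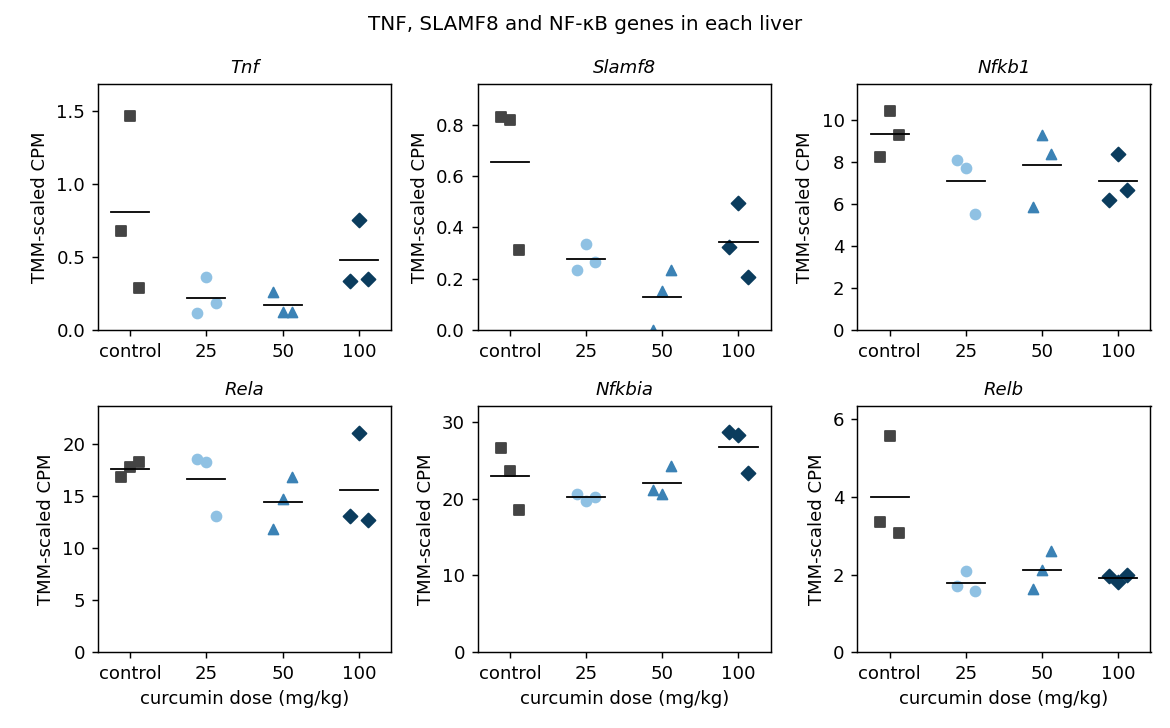
TMM-scaled CPM of 6 genes in each liver (points) with the group mean (bar), for CCl4 alone and curcumin at 25, 50 and 100 mg/kg; axes start at 0. Only Relb shows every curcumin liver (1.58 to 2.6 CPM) below every control (3.08 to 5.58 CPM); Tnf, Slamf8, Nfkb1, Rela and Nfkbia overlap.

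Immediate early genes are the first transcription factors that cells make after a growth signal or stress. They included 3 separated lower genes, Junb, Egr1 and Fosb, none of which passed edgeR's test. Junb, an AP-1 subunit, stood at 37.7, 35.5 and 75.2 CPM in the controls and at 10.6 to 22.2 CPM (median 17.9) with curcumin. Control 3 was the highest, and no liver overlapped (-1.57 ± 0.27, adjusted p = 0.095 in edgeR, 0.00026 in DESeq2 and 0.052 in limma). Egr1, a zinc finger factor, stood at 10.4, 9.34 and 23.6 CPM against 1.76 to 8.43 CPM (median 3.11), also without overlap (-1.76 ± 0.42, adjusted p = 0.206 in edgeR). Fosb, the third separated member, was weakly expressed in both groups, at 0.654, 0.755 and 1.81 CPM against 0 to 0.389 CPM (-3.00 ± 0.75, adjusted p = 0.229 in edgeR). It had 0 counts in low 1 and high 2, but 42 in high 1 and 14 in high 3. Jun stood at 9.84, 7.89 and 24.6 CPM against 2.56 to 9.25 CPM (median 5), where 7 of 9 curcumin livers lay below all controls (-1.50 ± 0.39, adjusted p = 0.256 in edgeR, and -0.83 without control replicate 3).

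Across the immediate early list 21 of 24 tested genes lay lower, with a median of -0.51 (-0.84 without the 5 libraries and -0.01 by library totals). Of the 24 genes 3 were separated and 8 lay lower at every dose, where the background is 1.2% and 5.81%. The summed level of the list overlapped, at 209 to 372 CPM in the controls and 137 to 258 CPM with curcumin, and high 1 and high 3 lay above control 2. The low and medium dose medians were -0.89 and -0.99 and the high dose median was -0.23. Egr1 lay at -2.24, -2.44 and -1.04 and Jun at -1.87, -2.03 and -0.89 at the low, medium and high dose. No difference among the doses passed edgeR's F test for any gene.

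Other leading lower genes belong to leukocytes or to cell death. Bin2, Fmnl1 and Pou2f2 are expressed in blood cells, where FMNL1 shapes the actin skeleton of leukocytes and POU2F2 (Oct-2) is a transcription factor of B cells. Bin2 stood at 4.15, 8.69 and 2.74 CPM against 1.42 to 2.6 CPM, Fmnl1 at 3.65, 6.87 and 3.05 CPM against 1.28 to 2.66 CPM, and Pou2f2 at 2.59, 8.7 and 2.19 CPM against 0.838 to 1.82 CPM. Control 2 was the highest of the controls in all 3 genes, and no liver overlapped. Without control replicate 2, Bin2 went from -1.47 to -0.87 and Pou2f2 from -1.75 to -0.83. Bbc3, which encodes the death protein PUMA, stood at 3.65, 6.72 and 6.53 CPM against 2.12 to 3.43 CPM (-1.07 ± 0.21, adjusted p = 0.177 in edgeR). Pim1, a survival kinase downstream of cytokine receptors, stood at 9.54, 13.1 and 12.4 CPM against 3.13 to 8.08 CPM (-1.06 ± 0.22, adjusted p = 0.191 in edgeR). Both were separated, and both were as large without the 5 libraries (-1.07 and -0.97).

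Sensors and effectors of innate immunity overlapped more. Of the Toll-like receptor and inflammasome list 25 of 27 tested genes lay lower, against 46.7% of all genes, with a median of -0.39 (-0.03 by library totals). Among them 2 were separated and 9 lay lower at every dose, beside 1.2% and 5.81% of all genes. Casp1, the protease that matures interleukin-1β, stood at 3.22, 5.65 and 3.5 CPM against 1.48 to 3.2 CPM (median 2.49), a separation of less than 0.1 CPM (-0.73 ± 0.23, adjusted p = 0.322 in edgeR). Tlr2, the receptor for bacterial lipoproteins, stood at 1.36, 4.12 and 1.07 CPM against 0.217 to 1.6 CPM, with high 1 above 2 of the controls (-1.54 ± 0.49, adjusted p = 0.332 in edgeR). All 6 tested subunits of the phagocyte NADPH oxidase, the enzyme that makes superoxide, lay lower (median -0.83), and 1 was separated: Ncf4, the p40phox subunit, at 2.89, 7.24 and 2.52 CPM against 1.45 to 2.41 CPM (-1.05 ± 0.27, adjusted p = 0.236 in edgeR). Without control replicate 2 these were -0.43 for Casp1, -0.69 for Tlr2 and -0.41 for Ncf4, and the medians of the lists were -0.25 and -0.45. Without control replicate 3 the Toll-like receptor median was -0.59.

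Of the interferon response list 30 of 36 tested genes lay lower, with a median of -0.44 (-0.02 by library totals and -0.24 without control replicate 2), and 1 was separated. Over all genes 46.7% lay lower and 1.2% were separated lower. Ifi44, an interferon-induced gene, stood at 4.43, 4.74 and 3.14 CPM in the controls and at 1.73 to 3 CPM (median 2.19) with curcumin (-0.91 ± 0.21, adjusted p = 0.202 in edgeR). It held without any 1 control, between -0.80 and -1.07. Gbp3, a guanylate-binding protein, stood at 17.1, 18.8 and 15.5 CPM against 7.94 to 16.6 CPM, where medium 2 alone overlapped (-0.67 ± 0.22, adjusted p = 0.355 in edgeR). Socs3, the inhibitor of interleukin-6 signalling, stood at 17, 14.4 and 21.8 CPM against 4.37 to 14.4 CPM (median 9.36), with 8 of 9 curcumin livers below all controls (-1.07 ± 0.33, adjusted p = 0.313 in edgeR). The list of acute phase and interleukin-6 signalling genes lay the other way in 16 of 24, where 53.3% of all genes lay higher. Its median was 0.24, and -0.45 without the 5 libraries. Il6ra, the receptor whose signal induces Socs3, was also higher: 7.98, 7.72 and 9.63 CPM against 9.95 to 30.3 CPM (median 23.5), with no overlap (1.39 ± 0.33, adjusted p = 0.21 in edgeR). Gdf15, a secreted stress hormone of injured cells, stood at 5.64, 6.77 and 9.79 CPM against 1.37 to 5.66 CPM (median 2.26), where high 2 alone reached the lowest control (-1.48 ± 0.34, adjusted p = 0.204 in edgeR).

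Markers of neutrophils, B cells and Kupffer cells also lay lower, and none passed edgeR's test. Over all genes tested 46.7% lay lower, 1.2% were separated lower and 5.81% lay lower at every dose. T and NK cell markers lay lower in 14 of 19 (median -0.47), with 0 separated and 1 lower at every dose. That median ranged from -0.72 to -0.03 without single libraries and was -0.17 by library totals. The summed level of these markers overlapped, at 9.69, 15.6 and 5.84 CPM in controls 1, 2 and 3 and 5.94 to 10.3 CPM with curcumin. Markers of recruited macrophages lay higher in 8 of 13 (median 0.12, 0.84 at the high dose and -0.59 without the 5 libraries). In whole tissue, fewer cells of a type and less RNA per cell cannot be told apart. All 9 tested neutrophil markers lay lower at every dose, with a median of -1.69, and 1 was separated. Their summed level was 12.4, 40.9 and 10.9 CPM in controls 1, 2 and 3 and 4.83 to 9.17 CPM (median 7.26) in the curcumin livers. No curcumin liver reached a control, and control 2 stood apart from the other two. S100a9, a calcium-binding protein of neutrophil granules, stood at 3.55, 10.1 and 3.63 CPM against 1.46 to 2.63 CPM (-1.44 ± 0.28, adjusted p = 0.177 in edgeR). Without control replicate 2 the median of the list was -0.75 and S100a9 was at -0.75. Csf3r, the receptor for granulocyte colony-stimulating factor, went from -1.69 to -0.62, and Slfn4, a schlafen gene of myeloid cells, from -1.87 to -0.91.

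Of the B and plasma cell list 14 of 16 tested genes lay lower (median -1.09, and -0.89 without the 5 libraries), 4 were separated and 12 lay lower at every dose. The background is 46.7% lower, 1.2% separated lower and 5.81% lower at every dose. Fcer2a (CD23), a receptor of mature B cells for IgE, stood at 1.56, 3.84 and 1.81 CPM against 0.254 to 1.02 CPM (median 0.748), with no overlap (-1.81 ± 0.34, adjusted p = 0.165 in edgeR and 0.047 in limma). Without control replicate 2 it was -1.29, and the median of the list was -0.70. The summed level of the list overlapped, at 49.2 to 103 CPM in the controls and 23.9 to 86 CPM with curcumin.

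Kupffer cell markers lay lower in 13 of 16 tested genes (median -0.37, 0.01 by library totals, -0.41 without the 5 libraries and -0.09 without control replicate 2), 0 were separated and 7 lay lower at every dose. Beside these, 46.7% of all genes lay lower, 1.2% were separated lower and 5.81% lay lower at every dose. The summed level of the Kupffer cell markers was 129 to 247 CPM in the controls and 103 to 163 CPM with curcumin. Clec4f, a lectin specific to Kupffer cells, stood at 54, 60.9 and 29.1 CPM against 15.1 to 32.3 CPM (median 23), where 7 of 9 curcumin livers lay below control 3, the lowest (-0.99 ± 0.25, adjusted p = 0.226 in edgeR). Cd5l, a secreted macrophage protein, stood at 22.5, 33.6 and 18.3 CPM against 7 to 20 CPM (-1.0 ± 0.25, adjusted p = 0.235 in edgeR). Marco, a scavenger receptor, rested on 1 library: it stood at 1.03, 26.6 and 1.52 CPM in the controls and at 0.563 to 2.49 CPM with curcumin, and its log2 fold change of -2.89 was 0.05 without control replicate 2. The part of these cell markers in the lower inflammatory genes was not tested.

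The higher genes were led by Tcim and by genes of lipid, haem and sugar metabolism. Tcim, a small regulator of transcription and cell growth, stood at 18.9, 15.4 and 9.81 CPM in the controls and at 41.6 to 152 CPM (median 74.5) with curcumin. The lowest curcumin liver was more than 20 CPM above the highest control. Its log2 fold change was 2.36 ± 0.43 (adjusted p = 0.16 in edgeR, 5.8e-06 in DESeq2 and 0.023 in limma), and it was 1.89, 2.69 and 2.37 at the low, medium and high dose. It lay between 2.13 and 2.58 without any 1 library and was 2.47 without the 5 libraries of low mitochondrial share. Mfsd2a, a transporter of lysophosphatidylcholine that the liver makes in fasting, stood at 47, 15.5 and 16.8 CPM against 68.7 to 169 CPM (median 98.8). Control 1 was the highest control and still below all curcumin livers (2.05 ± 0.42, adjusted p = 0.191 in edgeR, 0.00013 in DESeq2 and 0.023 in limma). Its values at the 3 doses were 2.04, 2.14 and 1.96.

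Alas1, the first and rate-limiting enzyme of haem synthesis, stood at 128, 82.5 and 69.3 CPM in the controls. With curcumin it stood at 196 to 386 CPM (median 350), with no overlap. The log2 fold change of Alas1 was 1.69 ± 0.34 (adjusted p = 0.182 in edgeR, 7.4e-06 in DESeq2 and 0.023 in limma). The other members of its list did not follow it: 8 of 13 genes of haem synthesis and breakdown lay higher, with a median of 0.14, and Alas1 was the 1 separated member. Over all genes 53.3% lay higher and 1.06% were separated higher. Cpox, a later enzyme of the same path, stood at 10.1, 7.93 and 8.74 CPM against 8.25 to 24.3 CPM (0.62 ± 0.28, adjusted p = 0.504 in edgeR). The summed level of the list, to which Alas1 gave most of the difference, was 244 to 294 CPM against 377 to 594 CPM.

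A group of genes of the response to insulin and fasting was separated on the higher side. Foxo1, the forkhead factor that insulin keeps out of the nucleus, stood at 7.65, 6.59 and 6.33 CPM against 8.23 to 19.5 CPM (median 14.5), with low 1 close to control 1 (1.13 ± 0.25, adjusted p = 0.202 in edgeR). Foxo3, its relative, stood at 14.6, 14.3 and 13.2 CPM against 17.3 to 27.2 CPM (0.63 ± 0.18, adjusted p = 0.286 in edgeR). Gpt2, the mitochondrial alanine aminotransferase, stood at 111, 100 and 113 CPM against 123 to 271 CPM (0.92 ± 0.30, adjusted p = 0.347 in edgeR). Of their list of 20 genes 4 were separated and 15 lay higher, beside 1.06% and 53.3% of all genes, with a median of 0.33 (0.23 without the 5 libraries, and 0.55 and 0.21 without control replicate 1 and 2). Pfkfb3, which makes the allosteric activator of glycolysis, stood at 3.57, 2.3 and 1.94 CPM against 4.12 to 16.1 CPM (median 8.67; 1.74 ± 0.39, adjusted p = 0.202 in edgeR).

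Lpin1, the phosphatidate phosphatase and nuclear co-activator of fatty acid oxidation, stood at 25.2, 18.4 and 17.2 CPM in the controls. Curcumin livers ranged from 26.4 CPM in low 1 to 193 CPM in high 3 (median 136), so that low 1 lay just outside the controls and most of the others far from them. The log2 fold change was 2.54 ± 0.59 (adjusted p = 0.204, edgeR), and 1.94, 2.75 and 2.79 at the 3 doses. The perilipins, which coat lipid droplets, lay the same way. Plin4 stood at 1.54, 2.22 and 1.94 CPM against 2.73 to 19.8 CPM (2.22 ± 0.63, adjusted p = 0.284 in edgeR) and Plin5 at 2.24, 1.77 and 1.56 CPM against 2.03 to 16.8 CPM (2.21 ± 0.50, adjusted p = 0.204 in edgeR). Only low 1 overlapped, for Plin5. Cidec, a droplet fusion protein that marks fatty liver, had 0 counts in all controls and in low 1 and 7 to 51 counts in the other 8 curcumin livers, at least 14.1-fold higher with a floor of 3 counts over the control group (adjusted p = 0.204, edgeR). Of the lipin and lipid droplet list 13 of 20 tested genes lay higher (median 0.41) and 8 lay higher at every dose, but the median was -0.01 without the 5 libraries, where Lpin1 was at 2.09, Plin4 at 2.43 and Plin5 at 2.23. Among all genes tested 53.3% lay higher and 8.22% lay higher at every dose.

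The remaining leading higher genes have unrelated functions. Sra1, which yields both an RNA co-activator of nuclear receptors and a protein, stood at 15.5, 9.61 and 11.3 CPM against 22.4 to 41.7 CPM (1.27 ± 0.25, adjusted p = 0.182 in edgeR and 0.037 in limma). Kcnk5, a potassium channel, stood at 9.79, 8.17 and 11.1 CPM against 14.5 to 39.5 CPM (1.44 ± 0.32, adjusted p = 0.202 in edgeR). Lsm3, part of the RNA ring that binds U6, stood at 2.19, 2.3 and 1.92 CPM against 3.08 to 4.54 CPM (0.80 ± 0.18, adjusted p = 0.202 in edgeR), and Lrrc28, a leucine-rich repeat protein, at 4.35, 4.74 and 3.7 CPM against 6.1 to 9.26 CPM (0.83 ± 0.18, adjusted p = 0.2 in edgeR). Hsph1, a large heat shock protein, stood at 8.93, 6.12 and 4.79 CPM against 9.54 to 38.2 CPM (1.58 ± 0.39, adjusted p = 0.226 in edgeR). It was the 1 separated member of a heat shock list in which 14 of 17 genes lay higher (median 0.52, and 0.25 without the 5 libraries). The shares over all genes were 1.06% separated higher and 53.3% higher.

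Clock genes were separated in both directions. Nr1d1 (REV-ERBα), the repressor of the clock's negative limb, stood at 58.7, 55.9 and 97.5 CPM in the controls and at 28.2 to 55.9 CPM (median 37.7) with curcumin (-0.89 ± 0.24, adjusted p = 0.284 in edgeR). Control 3 was the highest and medium 2 lay next to control 2, and without control replicate 3 the value was -0.59. Nfil3, a repressor of clock output genes, stood at 6.32, 4.79 and 5.28 CPM against 2.23 to 4.59 CPM (-0.76 ± 0.22, adjusted p = 0.286 in edgeR). Per1, a clock repressor that hormones also induce, stood at 32.9, 27.2 and 35.6 CPM against 43.2 to 96 CPM (0.93 ± 0.27, adjusted p = 0.298 in edgeR), and Usp2, a rhythmic deubiquitinase, at 18.7, 20.2 and 24.3 CPM against 27.4 to 54.6 CPM (0.83 ± 0.24, adjusted p = 0.284 in edgeR). Of 20 tested clock genes 2 were separated higher and 3 lower, beside 1.06% and 1.2% of all genes, and the list's median was -0.03 (0.37 by library totals). By library totals Nr1d1 and Nfil3 were at -0.40 and -0.41 and Per1 and Usp2 at 1.33 and 1.21, so these directions did not depend on that scaling.

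**Figure D4:**
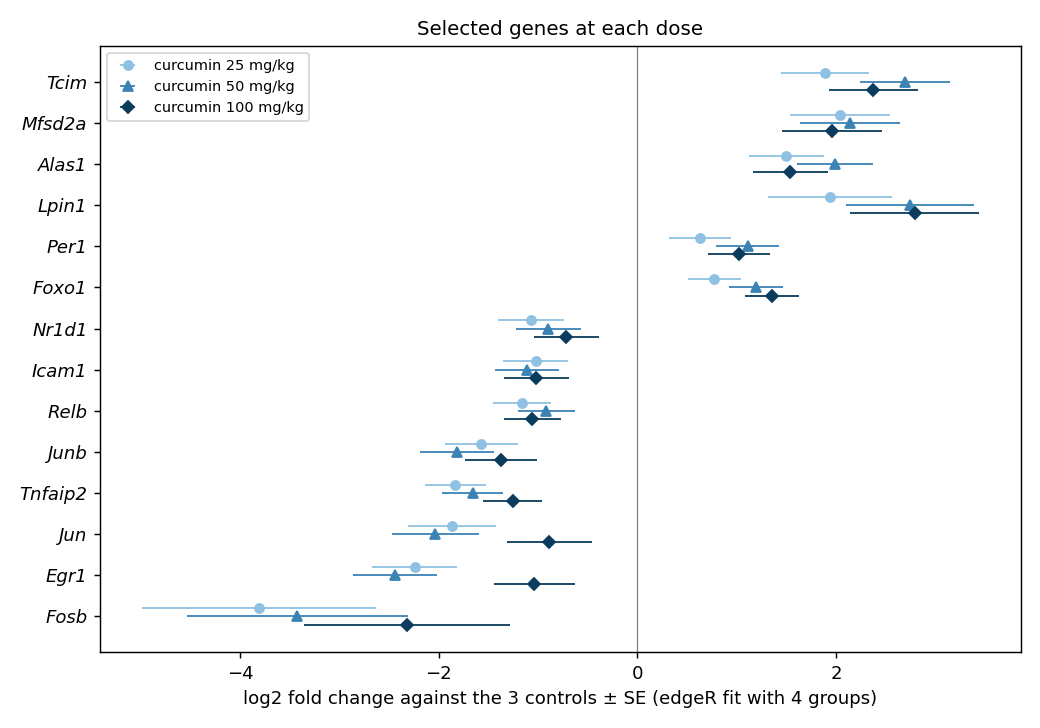
Log2 fold change of the low, medium and high dose group against the same 3 controls, with its SE from the edgeR fit with 4 groups, for 14 of the genes described. Each gene lies on 1 side of 0 at all doses; Jun and Egr1 lie closer to 0 at 100 mg/kg (-0.89 and -1.04) than at 25 mg/kg (-1.87 and -2.24), a difference that did not pass the F test among doses.

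Several broad groups moved with the mitochondrial share of the libraries. Over all genes 53.3% lay higher, 8.22% lay higher at every dose and 1.06% were separated higher. All 77 tested nuclear-encoded subunits of the respiratory chain lay higher (median 0.98), 44 of them at every dose and 2 with separation. Their summed level was 1184 to 1821 CPM in the controls, 3290 to 6343 CPM in low 3, medium 1, high 1 and high 3, and 1209 to 1479 CPM in the other 5 curcumin livers. The median was -0.04 without the 5 libraries below the controls in mitochondrial share, and 0.63 without high replicate 1 alone. Hepatocyte markers, of which 18 of 19 lay higher (median 0.70), fatty acid oxidation (19 of 24, median 0.53) and cytochrome P450 (28 of 38, median 0.56) were at -0.01, -0.03 and -0.00 without those libraries. All 81 tested ribosomal protein genes lay higher (median 0.94), 36 of them at every dose, with 0.33 without those libraries. Processed pseudogenes may share reads with these small genes. Without the 5 libraries the neutrophil median was -1.91 and the Toll-like receptor median -0.55, both still below 0, while the acute phase and recruited macrophage medians turned, as given above.

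Within the cytochrome P450 list the smallest p belonged to genes on both sides. Cyp3a16, an enzyme of the Cyp3a cluster whose members are near-identical, so that its counts are uncertain, stood at 3.83, 6.35 and 0.424 CPM against 0 to 1.24 CPM (-2.69 ± 0.80, adjusted p = 0.307 in edgeR). Cyp2b10, the target of the xenobiotic receptor CAR, stood at 0.705, 0.604 and 0.245 CPM against 0.474 to 3.04 CPM (1.47 ± 0.58, adjusted p = 0.45 in edgeR). Both groups of livers overlapped. Cyp4a10, a target of PPARα, stood at 43.7, 13 and 22.3 CPM against 21.6 to 202 CPM (1.80 ± 0.77, adjusted p = 0.485 in edgeR), and its value was 0.12 without the 5 libraries. Osgin1, a target of the antioxidant factor NRF2, stood at 43, 89.8 and 196 CPM in the controls and at 19.7 to 52.5 CPM (median 28.1) with curcumin (-1.70 ± 0.38, adjusted p = 0.202 in edgeR). Its controls spread more than 4-fold, and without control replicate 3 the value was -0.99. The NRF2 list as a whole had a median of 0.04, with 14 of 21 genes higher, beside 53.3% of all genes. Its median was -0.33 without the 5 libraries, -0.30 with the mitochondrial share as a covariate and 0.63 by library totals.

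**Figure D5:**
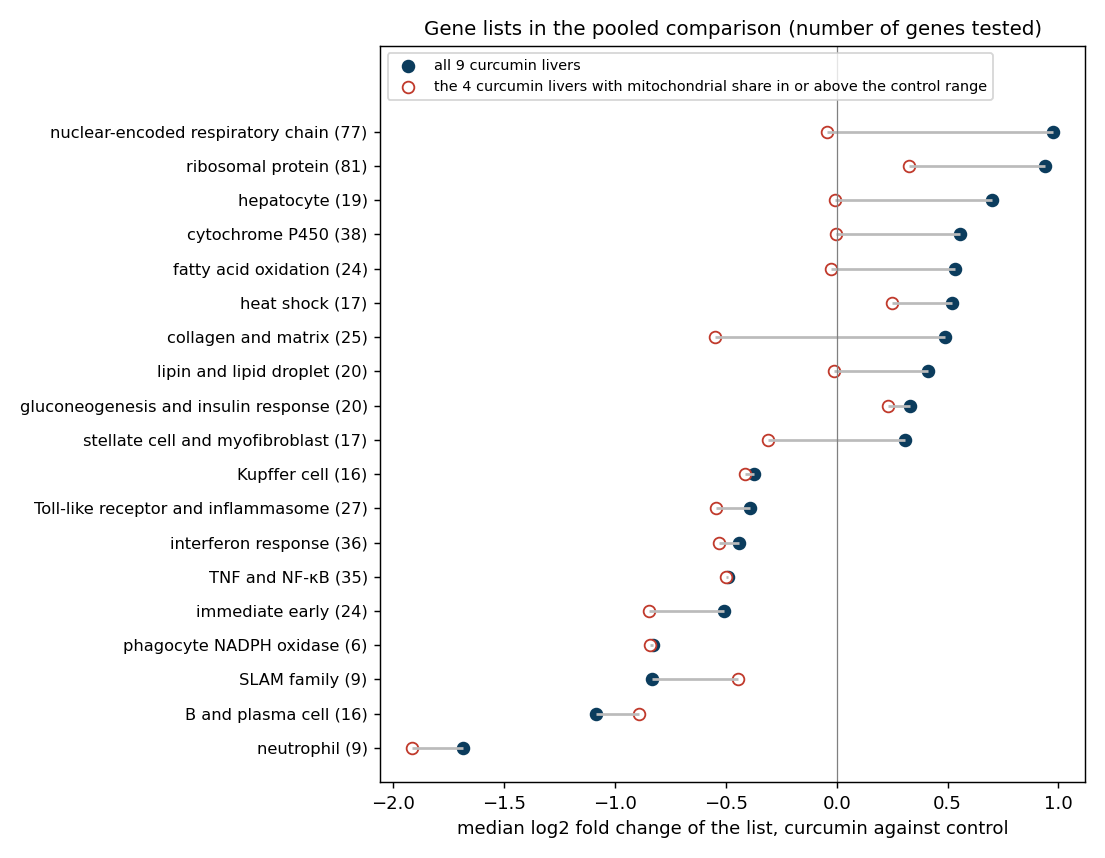
Median log2 fold change of curcumin against control for 19 gene lists (number of genes tested in brackets), with all 9 curcumin livers (filled) and with the 4 whose mitochondrial share lay within or above the control range (open). The 9 lists below 0 keep their side, while respiratory chain, hepatocyte, P450, fatty acid oxidation, lipid droplet, matrix and stellate lists go to or past 0.

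Fibrosis genes did not lie on 1 side of the controls. Of the collagen and matrix list 20 of 25 tested genes lay higher, beside 53.3% of all genes, with a median of 0.49. But the list's medians were -0.12, -0.22 and 1.15 at the low, medium and high dose. In this list 1 gene lay higher at every dose and 0 were separated. Over all genes 8.22% lay higher at every dose and 1.06% were separated higher. The summed level of the list was 222 to 286 CPM in the controls and 181 to 580 CPM with curcumin, with high 1 the highest. The median was -0.55 without the 5 libraries, and 0.04, 0.24 and 0.27 without high 1, high 3 and control 1. The list of stellate cell and myofibroblast markers behaved alike, with 11 of 17 genes higher (median 0.31), 0 separated and a median of -0.31 without those libraries. Leaving out single libraries put it at -0.08 (high 1), 0.17 (control 1), 0.20 (control 3) and 0.49 (control 2). Postn, a matrix protein of scars, stood at 1.74, 1.01 and 1.05 CPM against 1.03 to 3.35 CPM (0.87 ± 0.35, adjusted p = 0.464 in edgeR). Ccn2, a matricellular growth factor, stood at 1.06, 0.287 and 0.736 CPM against 0.503 to 3.61 CPM (1.28 ± 0.58, adjusted p = 0.508 in edgeR), with 0.47, 0.73 and 2.08 at the 3 doses. Both groups of livers overlapped for each gene.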

How the data were processed

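Raw gene counts of 12 mouse liver libraries were used as the authors deposited them: whole numbers, 1 column per library, by Ensembl identifier. The submitters' processing notes name STAR 2.7.10b, fastp 0.23.4 and StringTie 2.2.1, and build mm39. The counting step, its strand setting and its treatment of reads of several genes are not given in the sources used here. Symbols came from GENCODE M21 (52073 of 56923 identifiers, 91.5%), and no gene coordinates of that annotation were used. Promoter windows came from the RefSeq table on GRCm38.p6.

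Groups came from the labels. edgeR 4.0.16 in R 4.3.3 was run on genes passing filterByExpr (16839), with TMM scaling and robust quasi-likelihood fits: 1 fit with a single curcumin term (9 libraries against 3), and 1 with 4 groups for the doses and for the F test among them. Adjustment was by Benjamini-Hochberg over all tested genes. Log2 CPM for separation used a prior count of 2. Alternatives were other scalings, no filter on low counts, leaving out each library or dose group, DESeq2 1.42.0, voom with library weights in limma 3.58.1, a replicate block and the mitochondrial share as a covariate. A further one, chosen after seeing the data, left out the 5 curcumin libraries whose mitochondrial share lay below all controls. Nuclear copies of mitochondrial genes (11) were found with BLAST+ 2.17.0 (95% identity or more, across 80% or more of the transcript).

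At the depths here 3 counts correspond to 0.0426 to 0.0833 CPM of a library's total, a limit that covers counting error only. Between replicates the chi-square over its degrees of freedom was never below 38.5, so no library was a copy of another.

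Named genes are, in each direction, the 10 called or, where fewer, smallest-p separated genes (mean log2 CPM at least 1, no predicted loci), the genes of the title, and from each of 43 lists up to 4 members with the smallest p. The members and lists were chosen with earlier results of these data known, so that a list's direction is no independent support. ENSMUSG00000120967 and Bcl3's promoter were chosen outside the rule, after values were seen. Some members of the lists are not reported here.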

Additional observations from a re-analysis of the deposited data

Results flagged for a closer look

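In the 9 curcumin livers taken as 1 group, 84 sets of values were searched for a liver standing apart from the other 8 by Dixon's criterion, and 6 had one; chance flags about 1 in 20. On the log2 CPM scale, with a prior count of 2, Slamf8 in medium 1, Cidec in low 1 and Thbs2 in low 2 stood at -4.89, which is the value of 0 counts. Casp1 in high 1 was low at 0.60 and Fcer2a in high 3 was low at -1.80. Timd4, a receptor of Kupffer cells for dying cells, was high at 1.29 in high 3, also on the log2 scale. Its controls stood at 4.1, 7.19 and 1.29 in plain CPM, a different unit, so these values cannot be set side by side.

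Nfkbia, which encodes IκBα, was flagged because every high dose liver lay above the mean of the controls and every low dose liver below it, with log2 fold changes of 0.22 and -0.18. This difference between 2 doses was not tested on its own, and the F test among the 3 doses in edgeR did not call the gene.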

How the results depend on the processing

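No result had more than 3 controls behind it, and the spread among doses counted as error. The count of called genes (1 in edgeR) was 0 by library totals, 3 by totals without mitochondrial genes, 162 in DESeq2 and 17 in voom. It was 0 as the mean of 3 doses, with the mitochondrial share as a covariate, without the low dose group and without the medium dose group, and 1 without the high dose group, where the gene was Fos. It was 2 without the 5 libraries of low mitochondrial share (Tlcd2 at -1.77 and Fos at -2.99, adjusted p = 0.0437 in edgeR for both), and 0 to 9 without single libraries, 9 without control replicate 1 and 5 without control replicate 3. With a replicate block it was 0; the numbers did not pair the samples, since 8 of 18 same-numbered pairs had a correlation of deviations over 0.1 (-0.50 to 0.65). The block gave 0 genes among doses too. Separated genes (381) were 85 by library totals, 860, 787 and 672 without the low, medium and high dose group, 1455 without the 5 libraries and 396 to 1234 without single libraries. Genes on the same side (2363) were 3687 by library totals, 4911 with no filter, 10084 and 645 at minimum sizes of 0 and 1, 1329 without the 5 libraries and 1509 to 3634 without single ones. Genes that differ among doses (0) were 11 without the 5 libraries and 0 to 4 without single ones, 2 without low 3 and 4 without high 2. The mitochondrial share differed by -6.03 to -10.3 points without single libraries and by -11.3 points with nuclear copies (p = 0.345, exact permutation).

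Among the genes named and the lists of the report, signs turned as follows. By library totals Nfkb1 was 0.023, Rela 0.15, the TNF and NF-κB median 0.00068 and the Kupffer median 0.0079. All 4 values lie below the median of all genes by that scaling, which was 0.46, beside 0.04 by TMM. Without the 5 libraries Rela was 0.081 and the medians were -0.011 for lipid droplets, -0.028 for fatty acid oxidation, -0.0042 for P450, -0.045 for the respiratory chain, -0.0091 for hepatocytes, -0.55 for matrix and -0.31 for stellate cells. The matrix median was -0.14 without the high dose group and -0.46 with the covariate; the stellate median was -0.34 and -0.37 there, -0.038 in voom and -0.081 to 0.494 without single libraries. The NRF2 median (0.04) was -0.33 without the 5 libraries, -0.30 with the covariate and -0.20 by totals without mitochondrial genes, the clock median (-0.03) 0.37 by library totals and 0.03 with the covariate, the acute phase median (0.24) -0.45 without the 5 libraries and -0.43 with the covariate, and the recruited macrophage median (0.12) -0.59, -0.64 and, by totals without mitochondrial genes, -0.26. Without single libraries the NRF2, clock and recruited macrophage medians reached -0.06, 0.05 and -0.29. Marco was -3.42 to 0.046 without single libraries. Nfkbia, at 0.00, was -0.0238 with RLE scaling, -0.0232 in DESeq2, -0.17 by totals without mitochondrial genes, -0.12 without the high dose group, -0.0456 in voom, -0.0451 with the covariate, -0.0068 as the mean of doses and -0.13 to 0.123 without single libraries. The cause of these turns was not tested.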

Other observations

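Some genes known to be induced by glucocorticoids lay higher in the curcumin livers. They were grouped after their values were seen, so the group has no test and no support from its own direction. Of 15 such genes 14 lay higher, with a median of 0.65 (0.78 without the 5 libraries of low mitochondrial share), 2 were separated and 7 lay higher at every dose. Over all genes 53.3% lay higher, 1.06% were separated higher and 8.22% lay higher at every dose. The 14 include Nfkbia at 0.00 and Mt1 at 0.05, whose signs were not stable. Nfkbia was -0.17 by totals without mitochondrial genes, and Mt1 was -0.43 without the 5 libraries. Zbtb16 (PLZF), a zinc finger factor, stood at 0.453, 0.302 and 0.134 CPM in the controls and at 0.78 to 2.95 CPM (median 1.64) with curcumin. No liver overlapped, and its log2 fold change was 2.37 ± 0.48 (adjusted p = 0.183 in edgeR). Fkbp5, a co-chaperone of the glucocorticoid receptor, stood at 16.6, 18.2 and 22.8 CPM against 17.7 to 95.6 CPM (median 75.2), where low 1 alone lay among the controls (1.65 ± 0.52, adjusted p = 0.322 in edgeR). For some members control 1 stood apart from the other controls. Tsc22d3 (GILZ) stood at 109, 25.8 and 19.5 CPM in the controls and at 68 to 146 CPM with curcumin, and Errfi1, a feedback inhibitor of the EGF receptor, at 528, 136 and 86.1 CPM against 416 to 561 CPM. Tsc22d3 had a log2 fold change of 1.09, against 2.28 with control 1 left out and 0.71 with control 3 left out. For Errfi1 the same 3 values were 1.04, 2.2 and 0.63, so the size of both differences depended on single controls. Mt1 and Mt2, the metallothioneins, were at 0.05 and -0.08. Nfkbia and Per1 belong to this group too.

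Flavin-containing monooxygenases, which oxidise drugs and dietary amines, were also seen after the fact. Fmo5 stood at 68.8, 73.2 and 76.1 CPM in the controls and at 111 to 661 CPM (median 380) with curcumin, and Fmo2 at 8.78, 7.96 and 12.1 CPM against 14.3 to 46.6 CPM. Both were separated, at 2.22 ± 0.54 (adjusted p = 0.22 in edgeR) and 1.46 ± 0.34 (adjusted p = 0.204 in edgeR and 0.037 in limma). Fmo1 was at 0.25 and Fmo4 at -0.58.

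Fbxl2, a ubiquitin ligase subunit, had the next smallest p after the called gene and was also chosen after its values were seen. It stood at 3.15, 0.876 and 18.1 CPM in the controls and at 0.327 to 1.08 CPM (median 0.465) with curcumin, so the controls differed among themselves more than 20-fold and control 2 overlapped with high 1. Its log2 fold change was -3.77 ± 0.55 (adjusted p = 0.0578, edgeR), and -1.89 without control replicate 3.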
